A study of Mus musculus with 20 samples.

Results

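The RNA levels of 28 genes of cholesterol synthesis, uptake and export were followed in mouse epididymal fat through the first weeks of a high-fat diet. The members were chosen from a list of gene names by what their proteins do, and all 28 were found among the 39179 Ensembl gene IDs of the count table. They comprise 18 synthesis enzymes (not every step of the route), 8 genes of sterol sensing, uptake and intracellular transport, and 2 exporters. The animals were male C57BL6/J mice, an inbred strain, either left on normal chow (day 0) or given a high-fat diet for 2, 4, 6 or 14 days, with 4 libraries in each of the 5 groups. The labels name no genetic change, drug or cell sort for any group, and they give neither the age of the mice nor the make-up of the diets. The labels call the libraries biological replicates without saying that each came from a single mouse, so p-values measure the spread between these samples.

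Cells make cholesterol from acetyl-CoA through mevalonate, isoprenoid diphosphates, squalene and lanosterol, and the enzymes of this route are largely under the control of a shared transcription factor, SREBP-2, the product of Srebf2. Its precursor is escorted by Scap out of the endoplasmic reticulum when sterols are low and is held there with Insig1 or Insig2 when sterols are high. When sterols are plentiful, LXR receptors switch on a contrasting set that includes the exporters Abca1 and Abcg1 and the ubiquitin ligase gene Mylip, whose product sends lipoprotein receptors to degradation. White fat is known as a large store of free cholesterol in the body, held mostly in the lipid droplet and membranes of adipocytes.

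Total counts per library ran from 1916829 to 38832429, a 20.3-fold span, with the smallest in day 2 replicate 1. The fat cell genes Adipoq (1161 to 4789 CPM) and Plin1 (1319 to 2342 CPM) were abundant in all 20 libraries. Levels are given as CPM, counts scaled to a common library size after TMM adjustment. Chow replicate 4 held 80.1 CPM of Cuzd1, an epididymis marker, where the remaining chow libraries had 0 to 0.116 CPM and the high-fat ones 0 to 3.78 CPM. The other 4 markers of that list were low in the same library, with Adam7 at 1.46 CPM, Lcn8 and Crisp1 at 0.0312 CPM and Lcn5 at 0, and counts are also given without this library and day 2 replicate 1. Of 5 hepatocyte markers Cyp7a1 was at 0 in all libraries and Alb had at most 42.3 CPM. In bulk tissue, fewer cells of a type and less RNA per cell cannot be told apart. Changes are log2 values with their standard errors from edgeR's quasi-likelihood test, p-values were adjusted by Benjamini-Hochberg over all 15254 genes tested, and calls were made at adjusted values under 0.05. All 28 members passed the filter on low counts.

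Because most synthesis genes moved together, the DNA around their start sites is shown first, for the members on which the results turn. RefSeq promoter windows (GRCm38.p6, 250 bases before to 50 after each start) were matched by symbol for 22 of the 28 members, and Abcg1, Fdft1, Fdps, Npc1, Sqle and Stard4 had no entry. Insig1 and Hmgcs1 are shown as the sensing gene and the synthesis enzyme with the largest rises on day 2, Msmo1 and Tmem97 as the members of their classes whose 5 groups differed with the lowest p and which have no sterol regulatory element core, and Mylip and Abca1 as LXR-controlled members that did not rise. Capitals mark, on either strand, a sterol regulatory element core (CACNCCAC), an E-box (CACGTG) or a CCAAT box (CCAAT), none of which overlap each other here.
Insig1, chr5:28071162-28071461, plus strand: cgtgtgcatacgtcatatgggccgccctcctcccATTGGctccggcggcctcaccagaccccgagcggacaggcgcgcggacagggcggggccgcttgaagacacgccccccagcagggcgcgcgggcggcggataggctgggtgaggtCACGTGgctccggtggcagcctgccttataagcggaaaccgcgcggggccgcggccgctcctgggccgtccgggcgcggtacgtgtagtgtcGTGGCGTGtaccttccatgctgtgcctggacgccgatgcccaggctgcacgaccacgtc
Hmgcs1, chr13:119690101-119690400, plus strand: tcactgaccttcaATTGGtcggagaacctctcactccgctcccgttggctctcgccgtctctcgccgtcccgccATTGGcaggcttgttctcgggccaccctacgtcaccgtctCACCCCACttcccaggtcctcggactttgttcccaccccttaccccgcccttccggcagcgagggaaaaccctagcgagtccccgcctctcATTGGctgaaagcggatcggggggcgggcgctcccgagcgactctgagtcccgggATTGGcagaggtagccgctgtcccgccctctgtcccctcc
Msmo1, chr8:64733529-64733828, minus strand: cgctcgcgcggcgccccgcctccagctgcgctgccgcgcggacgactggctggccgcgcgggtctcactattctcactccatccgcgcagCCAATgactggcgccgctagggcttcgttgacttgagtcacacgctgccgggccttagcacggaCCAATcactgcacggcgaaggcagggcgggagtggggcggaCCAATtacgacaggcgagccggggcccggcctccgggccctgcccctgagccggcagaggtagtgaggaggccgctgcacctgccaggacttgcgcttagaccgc
Tmem97, chr11:78550686-78550985, minus strand: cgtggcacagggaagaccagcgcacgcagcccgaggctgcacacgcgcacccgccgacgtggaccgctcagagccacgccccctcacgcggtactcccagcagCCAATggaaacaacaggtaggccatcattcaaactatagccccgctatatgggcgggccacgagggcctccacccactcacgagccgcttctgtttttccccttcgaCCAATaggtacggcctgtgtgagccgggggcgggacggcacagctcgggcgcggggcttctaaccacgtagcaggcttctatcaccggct
Mylip, chr13:45389492-45389791, plus strand: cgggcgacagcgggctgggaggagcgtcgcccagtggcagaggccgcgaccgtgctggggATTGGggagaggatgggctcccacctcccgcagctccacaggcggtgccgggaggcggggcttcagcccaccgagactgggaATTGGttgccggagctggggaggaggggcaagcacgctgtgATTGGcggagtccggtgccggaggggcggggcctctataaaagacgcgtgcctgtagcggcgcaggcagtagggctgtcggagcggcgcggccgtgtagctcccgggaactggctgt
Abca1, chr4:53159846-53160145, minus strand: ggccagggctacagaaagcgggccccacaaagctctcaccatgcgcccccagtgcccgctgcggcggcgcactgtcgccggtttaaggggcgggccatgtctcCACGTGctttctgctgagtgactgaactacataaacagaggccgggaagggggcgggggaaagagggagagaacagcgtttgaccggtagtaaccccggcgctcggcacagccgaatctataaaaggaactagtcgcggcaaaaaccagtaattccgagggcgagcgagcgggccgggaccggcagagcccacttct

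The sterol regulatory element core, the usual binding motif of SREBP, was found in the windows of 3 of 22 members (Acat2, Hmgcs1 and Insig1), against 7.12% of 27025 genes with a window. CCAAT boxes, bound by the factor NF-Y, were found in 19 of 22 members, 14 of 15 synthesis genes and 5 of 6 sensing and uptake genes, against 41.1% of all genes. Insig1 held 1 CCAAT box, Hmgcs1 held 4, Msmo1 and Mylip held 3 each, Tmem97 held 2, and Abca1 held 0. E-boxes were found in 6 members (Abca1, Dhcr7, Hsd17b7, Insig1, Sc5d and Scap), against 8.09% of all genes. The LXR direct repeat in its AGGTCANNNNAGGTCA form was found in 0 of 22 members and 4 genes in all, and its half-site AGGTCA in 3 members (Dhcr7, Hmgcs1 and Insig1) against 18.1% of genes. Such matches describe the letters in these windows only. The 27025 genes were taken whether or not they passed the filter on low counts, which all members did.

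Synthesis genes were higher on day 4 than on chow: 16 of 18 were called higher and 0 lower, with a median log2 change of 1.31. The median over all genes tested was -0.02, and 18% of them were called higher and 17.3% lower. Among sensing and uptake genes Insig1, Tmem97 and Stard4 rose and Mylip fell, out of 8, and neither of the 2 exporters was called. Together 20 of 28 members were called on day 4. In 16 members all day 4 libraries lay above all chow libraries (15.2% of all genes) and in 1, Mylip, all lay below (15% of all genes). Of the 20 calls, 14 remained whichever single library was left out. Without day 4 replicate 4 the calls of Fdps, Sqle, Lss, Nsdhl, Pmvk and Mylip were lost, and that of Pmvk was also lost without chow replicate 2 or 4. Without chow replicate 4 and day 2 replicate 1 the count was 19.

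**Figure D1:**
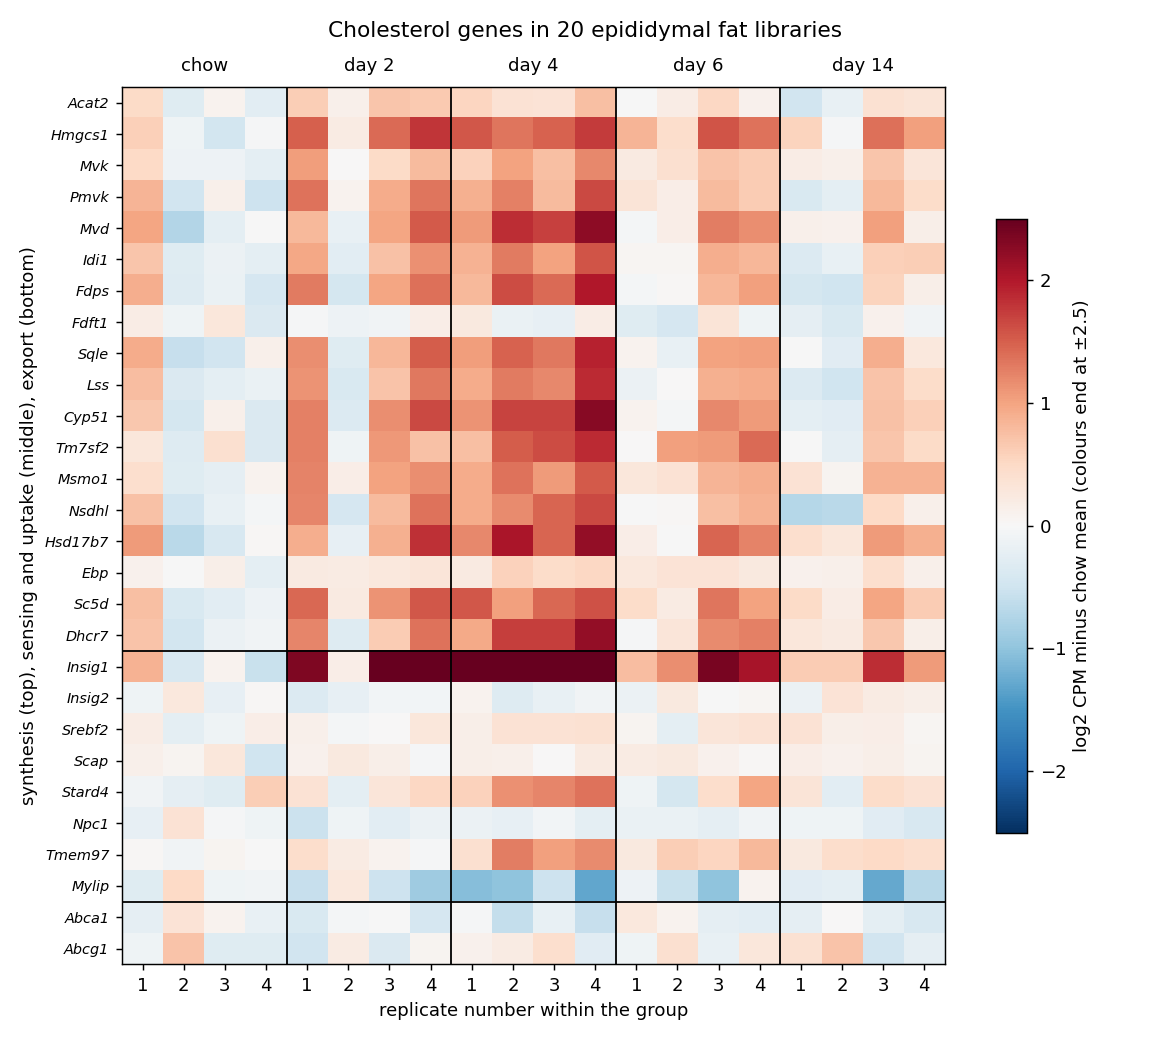
Heat map of log2 CPM minus the chow mean for the 28 members (rows, by role) in each of the 20 libraries (columns, by group and replicate); red is above and blue below the chow mean, and colours end at 2.5, which Insig1 passes. The 4 day 4 libraries are red for most synthesis genes, as are day 2 replicates 1, 3 and 4 and day 6 replicates 3 and 4. Chow replicate 1 and day 14 replicate 3 are red to a lesser degree, and day 2 replicate 2 is close to chow.

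On day 2, 4 members were called higher and 0 lower: Insig1, Hmgcs1, Msmo1 and Sc5d, where 2.43% of all genes were called higher and 1.96% lower. The synthesis median was 0.76 (all genes -0.03), or 0.48 without day 2 replicate 4, and all but Fdft1 had a positive change. These 4 calls depended on single libraries. The count fell to 0 when any one of chow replicates 2 and 4 or day 2 replicates 1, 3 and 4 was left out, and to 1 in the absence of chow replicate 3. It was 7 with chow replicate 1 left out, 8 with day 2 replicate 2 left out, and 0 without chow replicate 4 and day 2 replicate 1 together.

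On day 6, 0 members were called by edgeR (1.99% of all genes were called higher and 1.46% lower). At an unadjusted p under 0.05, 8 members were higher and 0 lower, where 1954 and 1773 of all 15254 genes were. DESeq2 called 4 members and 1180 of all genes, and limma-voom called 1 member and 706 of all genes. The synthesis median was 0.46 (all genes -0.01), or 0.79 without chow replicate 1. The count was 5 without chow replicate 1 (Insig1, Hmgcs1, Mvk, Sc5d and Tmem97) and 3 without day 6 replicate 1 (Insig1, Tm7sf2 and Tmem97). On day 14, 0 members were called by edgeR, DESeq2 or limma-voom (0.878% of all genes were called higher and 0.302% lower by edgeR). At an unadjusted p under 0.05, 4 members were higher and 2 lower, where 1364 and 1385 of all 15254 genes were. The synthesis median was 0.18 on day 14 (all genes -0.01), and it moved with single libraries. Leaving out chow replicate 1, 2 or 4 gave 0.46, 0.06 and 0.08, and leaving out day 14 replicate 1, 2 or 3 gave 0.29, 0.30 and -0.01. The 4 comparisons share the chow libraries.

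**Figure D2:**
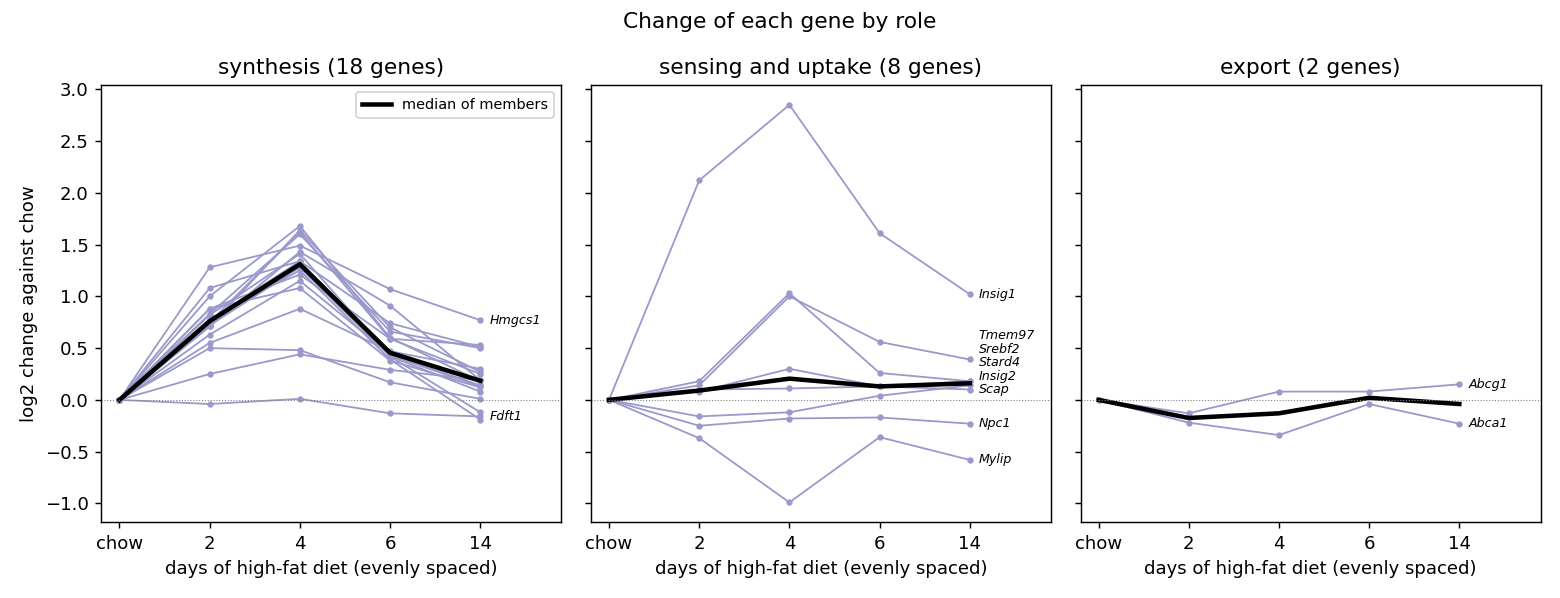
Fitted log2 change against chow (vertical axis) on days 2, 4, 6 and 14 (horizontal axis, evenly spaced, chow at 0) for each member (thin lines) and the median of each role class (thick line). The synthesis median is 0.76, 1.31, 0.46 and 0.18 on the 4 days, Insig1 stands above all other members on each day, and both exporters stay within 0.34 of chow.

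The first steps of the route lead from acetyl-CoA to mevalonate and on to the isoprenoid diphosphates. Hmgcs1 encodes the cytosolic synthase that commits acetoacetyl-CoA to this route. Hmgcs1 measured 369, 228, 177 and 238 CPM in the chow libraries, 684, 283, 649 and 846 CPM on day 2 and 716, 618, 678 and 822 CPM on day 4. It then measured 441, 331, 728 and 626 CPM on day 6 and 360, 238, 632 and 494 CPM on day 14. On day 4 every library lay above every chow library, whereas day 2 replicate 2, day 6 replicate 2 and day 14 replicates 1 and 2 lay within the chow range. Its log2 change was 1.28 ± 0.33 (SE, edgeR adjusted p = 0.0374) on day 2, 1.49 ± 0.33 (SE, edgeR adjusted p = 0.00333) on day 4, 1.07 ± 0.33 (edgeR adjusted p = 0.0682) on day 6 and 0.77 ± 0.33 (edgeR adjusted p = 0.218) on day 14.

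The other genes of the early steps rose on day 4 apart from Acat2. Acat2, the cytosolic thiolase that supplies acetoacetyl-CoA, went from 68.6 ± 18 CPM to 95.4 ± 13 CPM (SD, n = 4), and at 0.48 ± 0.20 (SE, edgeR adjusted p = 0.0687) on the log2 scale it was not called, though without chow replicate 1 it was (0.65, edgeR adjusted p = 0.0196). Its near-identical neighbour Acat3 had 0.222 to 3.99 CPM, and reads may be split between them. The kinase genes Mvk and Pmvk changed by 0.88 ± 0.21 and 1.08 ± 0.33 (log2, SE; edgeR adjusted p = 0.00441 and 0.0192). The decarboxylase gene Mvd went from 10.3 ± 5.61 CPM to 31.8 ± 10.1 CPM (SD, n = 4), a rise of 1.62 ± 0.40 (SE, edgeR adjusted p = 0.0061). Idi1, the isomerase of isopentenyl diphosphate, rose by 1.15 ± 0.32 and Fdps, which makes farnesyl diphosphate, by 1.41 ± 0.39 (log2, SE; edgeR adjusted p = 0.0103 and 0.011).

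At the branch point where farnesyl diphosphate is committed to sterols, Fdft1, the squalene synthase gene, was not called on any day. It measured 56.2 ± 11.1 CPM on chow, 54.8 ± 5.19 CPM on day 2, 56.2 ± 9.15 CPM on day 4, 51.6 ± 12.1 CPM on day 6 and 50.3 ± 7.33 CPM on day 14 (SD, n = 4). Its log2 change on day 4 was 0.01 ± 0.16 (SE, edgeR adjusted p = 0.972), the smallest in size of the 18 synthesis genes. The next enzymes, squalene epoxidase (Sqle) and lanosterol synthase (Lss), went from 20.8 ± 10.9 CPM to 52.8 ± 13.8 CPM and from 45.3 ± 18.7 CPM to 110 ± 32.1 CPM (SD, n = 4). These were rises of 1.34 ± 0.39 and 1.28 ± 0.37 (log2, SE; edgeR adjusted p = 0.0145 and 0.0132).

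All 8 listed enzymes after lanosterol rose on day 4. Cyp51 encodes the demethylase that acts first on lanosterol. Cyp51 measured 57.5, 26.7, 39.8 and 28.2 CPM in the chow libraries, 86.3, 28.4, 80.9 and 113 CPM on day 2 and 78.8, 117, 117 and 175 CPM on day 4. It then measured 38.5, 34.9, 83.3 and 75.7 CPM on day 6 and 30.5, 29.7, 60 and 54.6 CPM on day 14. All day 4 libraries lay above all chow libraries, and day 2 replicate 2 lay within the chow range. The log2 change was 1.00 ± 0.40 (edgeR adjusted p = 0.125) on day 2 and 1.68 ± 0.40 (SE, edgeR adjusted p = 0.00457) on day 4.

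Msmo1 encodes the oxidase that removes the methyl groups at carbon 4. Msmo1 measured 27, 16.4, 17.4 and 21.6 CPM in the chow libraries, 47.5, 22.8, 40.4 and 45.5 CPM on day 2 and 38.4, 52.1, 42.4 and 58.8 CPM on day 4. It then measured 24.5, 25.8, 36.3 and 38.1 CPM on day 6 and 25.9, 21.3, 36.9 and 37 CPM on day 14. The day 4 libraries were all above chow, and on days 6 and 14 the lower 2 libraries of each day lay within the chow range. It rose by 0.88 ± 0.24 (SE, edgeR adjusted p = 0.0447) on day 2 and 1.21 ± 0.24 (SE, edgeR adjusted p = 0.00178) on day 4, and its changes were 0.59 ± 0.23 on day 6 and 0.53 ± 0.24 on day 14.

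Nsdhl and Hsd17b7 encode the enzymes that complete that demethylation. Nsdhl measured 95, 41, 50.3 and 55.6 CPM in the chow libraries, 134, 43.1, 99.6 and 147 CPM on day 2 and 109, 130, 157 and 181 CPM on day 4. It then measured 57, 58.5, 97.2 and 105 CPM on day 6 and 35, 36.1, 81.5 and 62.8 CPM on day 14. All day 4 libraries lay above all chow libraries, chow replicate 1 was above 2 of the day 6 libraries, and on day 14 replicates 1 and 2 were below all chow libraries. The log2 change of Nsdhl was 1.25 ± 0.36 (SE, edgeR adjusted p = 0.0128) on day 4 and -0.19 ± 0.36 on day 14, and Hsd17b7 went from 10.7 ± 6.37 CPM to 32.6 ± 10.3 CPM on day 4 (SD, n = 4), a rise of 1.60 ± 0.43 (SE, edgeR adjusted p = 0.00929).

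Tm7sf2, a sterol reductase gene with low counts, had the lowest level per length of the synthesis genes. Tm7sf2 measured 8.96, 5.93, 9.77 and 5.76 CPM in the chow libraries, 17.8, 6.83, 15.6 and 12.3 CPM on day 2 and 12.4, 21.2, 22.9 and 26.8 CPM on day 4. It then measured 7.47, 15, 15.5 and 19.7 CPM on day 6 and 7.31, 6.32, 12 and 10.3 CPM on day 14. The day 4 values did not overlap chow. It rose by 1.43 ± 0.33 (SE, edgeR adjusted p = 0.00367) on day 4, and the change on day 6 was 0.91 ± 0.32 (edgeR adjusted p = 0.0968).

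Ebp, the sterol isomerase gene, changed little in size but with a narrow spread. Ebp measured 38, 35, 39.5 and 30.1 CPM in the chow libraries, 41.5, 40.8, 42.7 and 43.8 CPM on day 2 and 41.6, 52.7, 48.6 and 50.6 CPM on day 4. It then measured 42.6, 45.1, 45 and 42.1 CPM on day 6 and 38, 38.5, 47.2 and 38.9 CPM on day 14. All libraries of days 2, 4 and 6 lay above all chow libraries (5.47% of all genes on day 2), and only day 4 passed the test, with 0.44 ± 0.09 (SE, edgeR adjusted p = 0.00261). The changes were 0.25 ± 0.09 (edgeR adjusted p = 0.114) on day 2 and 0.29 ± 0.09 (edgeR adjusted p = 0.0721) on day 6.

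Sc5d and Dhcr7 encode the desaturase and the reductase near the end of the route. Sc5d measured 204, 92.5, 101 and 111 CPM in the chow libraries, 327, 140, 262 and 353 CPM on day 2 and 352, 244, 326 and 364 CPM on day 4. It then measured 166, 139, 306 and 242 CPM on day 6 and 167, 137, 238 and 187 CPM on day 14. Chow replicate 1 was well above the other chow libraries, and the day 4 libraries were all higher still. Sc5d rose by 1.08 ± 0.30 (SE, edgeR adjusted p = 0.0491) on day 2 and 1.34 ± 0.30 (SE, edgeR adjusted p = 0.0036) on day 4.

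Dhcr7 measured 25.2, 11.2, 14 and 14.5 CPM in the chow libraries, 36.1, 12.4, 23.9 and 39.5 CPM on day 2 and 30, 51.1, 51.3 and 71.1 CPM on day 4. It then measured 15.1, 19.2, 35.1 and 37 CPM on day 6 and 18.8, 18, 24.6 and 17.1 CPM on day 14. Day 4 did not overlap chow, while day 14 lay inside the chow range. Dhcr7 rose by 1.64 ± 0.36 (SE, edgeR adjusted p = 0.00298) on day 4, and its day 2 change was 0.71 ± 0.36 (edgeR adjusted p = 0.22).

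Insig1, the sterol-responsive brake on SREBP release, had the largest changes of all 28 members on each high-fat day. Insig1 measured 208, 85.8, 120 and 77.2 CPM in the chow libraries, 568, 128, 660 and 781 CPM on day 2 and 674, 779, 806 and 1285 CPM on day 4. It then measured 194, 253, 585 and 470 CPM on day 6 and 175, 177, 409 and 238 CPM on day 14. Every library of day 4 was above every chow library by a wide margin, and day 2 replicate 2, day 6 replicate 1 and day 14 replicates 1 and 2 were within the chow range. It rose by 2.12 ± 0.48 (SE, edgeR adjusted p = 0.0236) on day 2 and 2.85 ± 0.49 (SE, edgeR adjusted p = 0.0012) on day 4, a 7.22-fold change, and was 1.61 ± 0.47 (edgeR adjusted p = 0.0604) on day 6 and 1.02 ± 0.47 (edgeR adjusted p = 0.254) on day 14. The day 4 call remained without any single library (highest edgeR adjusted p = 0.00714), and the day 2 call was lost without any one of chow replicates 2 and 4 or day 2 replicates 1, 3 and 4 (highest edgeR adjusted p = 0.095).

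Insig2, its paralog, is not driven by SREBP in the same way. Insig2 measured 61.4, 79.3, 57.2 and 67.1 CPM in the chow libraries, 51.8, 57.2, 62.9 and 62.5 CPM on day 2 and 70.2, 52.3, 58.1 and 62.2 CPM on day 4. It then measured 59.8, 77.4, 65.6 and 68 CPM on day 6 and 59.1, 83, 76.3 and 73.1 CPM on day 14. All high-fat days overlapped chow, and its log2 changes were -0.16 ± 0.12, -0.12 ± 0.12, 0.04 ± 0.12 and 0.14 ± 0.12 on days 2, 4, 6 and 14 (SE, edgeR adjusted p = 0.419, 0.475, 0.892 and 0.586).

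The transcripts of SREBP-2 and its escort were not called on any day with all libraries and group as the only term. Srebf2 measured 68, 51.1, 55.9 and 67.5 CPM in the chow libraries, 65.3, 58.3, 60.7 and 73.3 CPM on day 2 and 66.8, 77.5, 77.7 and 78.4 CPM on day 4. It then measured 63.2, 51, 73.8 and 77.7 CPM on day 6 and 77.8, 66.7, 67.6 and 62 CPM on day 14. On day 4, 3 of 4 libraries were above all chow libraries and replicate 1 was within the chow range. The day 4 change was 0.30 ± 0.12 (SE, edgeR adjusted p = 0.0639), and the other days had 0.08 ± 0.13, 0.13 ± 0.12 and 0.18 ± 0.12. Without day 4 replicate 1 the day 4 change of Srebf2 was called, at 0.36 (edgeR adjusted p = 0.0416). It was also called with all libraries and the replicate number as a term (edgeR adjusted p = 0.0428).

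Scap measured 45.4, 43.5, 50.4 and 29.5 CPM in the chow libraries, 44.8, 48.9, 45.9 and 40.3 CPM on day 2 and 45.8, 45.4, 41.7 and 48.1 CPM on day 4. It then measured 47.9, 49.2, 44.6 and 42.5 CPM on day 6 and 46.3, 44.8, 45.6 and 43.5 CPM on day 14. Apart from chow replicate 4, the lowest, the libraries ran from 40.3 to 50.4 CPM. Changes of Scap lay between 0.10 and 0.13, none called.

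**Figure D3:**
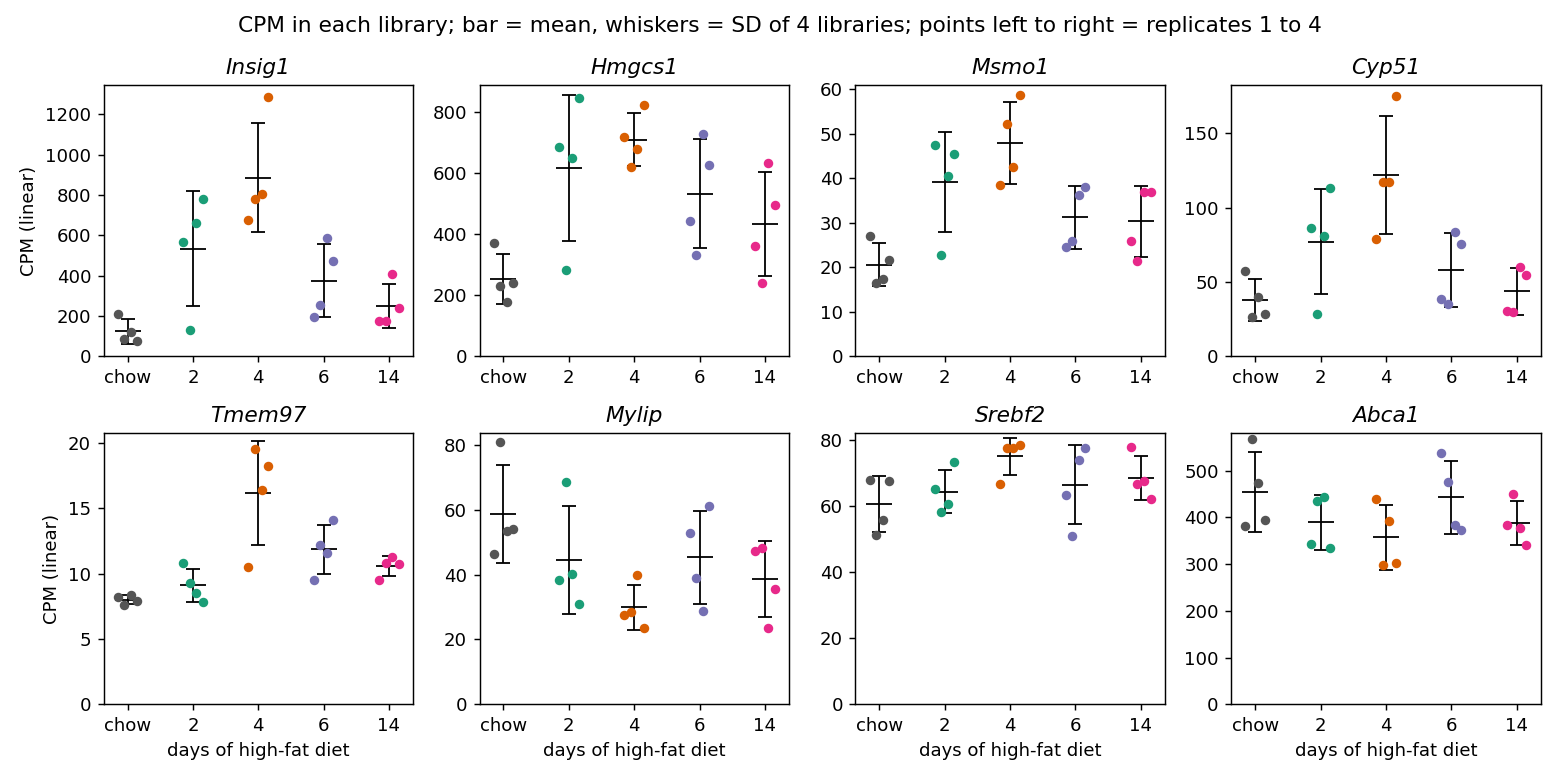
CPM (linear axis from 0) of 8 members in each library, by days of high-fat diet; points are replicates 1 to 4 from left to right, the bar is the mean and the whiskers the SD of 4 libraries. Insig1, Hmgcs1, Msmo1, Cyp51 and Tmem97 peak in mean on day 4, Mylip is lowest on day 4, and Srebf2 and Abca1 overlap chow on all days.

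Stard4, a carrier of sterols between membranes, and Tmem97, an endoplasmic reticulum protein that binds Npc1, rose on day 4. Stard4 measured 14.2, 13, 12.2 and 23.2 CPM in the chow libraries, 19.4, 12.7, 18.6 and 21.7 CPM on day 2 and 22.4, 33.2, 35.1 and 38.8 CPM on day 4. It then measured 14, 11.1, 20.5 and 30.1 CPM on day 6 and 18.9, 12.6, 20.9 and 19.3 CPM on day 14. Chow replicate 4 was above the other chow libraries and above day 4 replicate 1. The change was 1.03 ± 0.28 (SE, edgeR adjusted p = 0.0103) on day 4 and at most 0.26 on the other days.

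Tmem97 measured 8.2, 7.56, 8.38 and 7.91 CPM in the chow libraries, 10.8, 9.27, 8.49 and 7.83 CPM on day 2 and 10.5, 19.5, 16.4 and 18.2 CPM on day 4. It then measured 9.5, 12.2, 11.6 and 14.1 CPM on day 6 and 9.54, 10.8, 11.3 and 10.7 CPM on day 14. The 4 chow libraries of Tmem97 were close together, and on day 4 replicate 1 was well below the other 3. It rose by 1.00 ± 0.16 (SE, edgeR adjusted p = 0.000977) on day 4, the smallest adjusted p of the 28 members, with 0.56 ± 0.16 (edgeR adjusted p = 0.0537) on day 6 and 0.39 ± 0.16 (edgeR adjusted p = 0.201) on day 14. On days 6 and 14 all libraries also lay above all chow libraries (6.2% and 5.28% of all genes). Cell cycle genes had the same division of libraries: day 4 replicate 1 had a mean log2 level over chow of 1.11, below the 4.08 to 4.35 of its group, and the part of dividing cells in the Tmem97 values was not tested.

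Npc1, which moves cholesterol out of late endosomes and lysosomes, was not called on any day. Npc1 measured 44.4, 65.8, 50.6 and 47.5 CPM in the chow libraries, 35.6, 47.5, 43 and 46.5 CPM on day 2 and 46.5, 44.5, 49 and 43.5 CPM on day 4. It then measured 46.1, 46, 44 and 48.7 CPM on day 6 and 47.5, 48, 42.2 and 39.2 CPM on day 14. Chow replicate 2 was the highest of the 20 libraries and the remainder overlapped. Its changes were -0.25 ± 0.11, -0.18 ± 0.11, -0.17 ± 0.11 and -0.23 ± 0.11 on days 2, 4, 6 and 14 (SE, edgeR adjusted p = 0.166, 0.207, 0.345 and 0.275).

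Mylip, the LXR-controlled ubiquitin ligase gene, was the only member called lower than chow on any day. Mylip measured 46.3, 80.8, 53.5 and 54 CPM in the chow libraries, 38.3, 68.7, 40.2 and 31 CPM on day 2 and 27.5, 28.6, 39.9 and 23.4 CPM on day 4. It then measured 52.7, 38.8, 28.7 and 61.1 CPM on day 6 and 47.3, 48.1, 23.5 and 35.6 CPM on day 14. All day 4 libraries were below all chow libraries, and the other days overlapped chow. Its day 4 change was -0.99 ± 0.28 (SE, edgeR adjusted p = 0.013), or from 58.6 ± 15.2 CPM to 29.9 ± 7.09 CPM (SD, n = 4), and without day 4 replicate 4 its edgeR adjusted p was 0.05, no longer under the threshold. The changes on the other days were -0.37 ± 0.28, -0.36 ± 0.27 and -0.58 ± 0.28 (days 2, 6 and 14), none called.

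The exporters, also LXR-controlled, were not called on any day with all libraries and TMM scaling. Abca1 passes cholesterol to lipid-poor apolipoprotein A-I and Abcg1 passes it to formed HDL particles. Abca1 measured 382, 567, 474 and 395 CPM in the chow libraries, 343, 436, 443 and 335 CPM on day 2 and 439, 298, 393 and 302 CPM on day 4. It then measured 537, 476, 384 and 374 CPM on day 6 and 383, 451, 378 and 340 CPM on day 14. The groups overlapped on every day, with chow replicate 2 the highest. The log2 changes of Abca1 were -0.22 ± 0.16, -0.34 ± 0.16, -0.04 ± 0.16 and -0.23 ± 0.16 on days 2, 4, 6 and 14 (SE, edgeR adjusted p = 0.407, 0.105, 0.92 and 0.492). On day 4 Abca1 was called lower with library totals only (-0.45, edgeR adjusted p = 0.0379) and without day 4 replicate 1 (-0.46, edgeR adjusted p = 0.0416).

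Abcg1 measured 27.8, 49.1, 24.5 and 24.5 CPM in the chow libraries, 21.6, 34.5, 23.3 and 31.4 CPM on day 2 and 32.6, 34.9, 40.2 and 24.8 CPM on day 4. It then measured 27.9, 39.8, 26.3 and 36.4 CPM on day 6 and 39.4, 49.3, 21.5 and 25.7 CPM on day 14. Chow replicate 2 and day 14 replicate 2 were about equal and above the rest. The changes were -0.13 ± 0.26, 0.08 ± 0.26, 0.08 ± 0.26 and 0.15 ± 0.26 on the 4 days (SE, edgeR adjusted p = 0.803, 0.85, 0.894 and 0.826). At an unadjusted p under 0.05, 1 exporter (Abca1) was lower on day 4, as were 3542 of all 15254 genes. On the other days 0 of 2 passed, and DESeq2 and limma-voom called 0 of 2 on each day. Both exporters are also known from macrophages. The summed level of 10 macrophage markers lay between 1081 and 1245 CPM on chow, 587 and 972 CPM on day 2, 586 and 1100 CPM on day 4, 779 and 1203 CPM on day 6, and 738 and 1264 CPM on day 14, with 0 markers absent from all libraries, and its part in the exporter levels was not tested.

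Within groups the synthesis genes varied together from library to library. Of the 18 genes, 15 had their highest chow value in chow replicate 1, whose mean over the class was 0.64 (log2 units over the chow mean), where the other 3 had -0.36 to -0.10. All 18 had their lowest day 2 value in day 2 replicate 2 (class mean -0.11 against 0.81 to 1.19), 16 had their highest day 4 value in day 4 replicate 4 (1.60 against 0.89 to 1.24), and 16 had their highest day 14 value in day 14 replicate 3 (0.72 against -0.13 to 0.42). On day 6 replicates 3 and 4 held 17 of the 18 highest values, with class means of 0.94 and 0.86 against 0.12 and 0.17. Such counts of highest and lowest libraries were not made over all genes tested, so their share there is not known. The class mean was 1.22 ± 0.29 on day 4 (SD, n = 4), 0.73 ± 0.58 on day 2, 0.52 ± 0.44 on day 6 and 0.24 ± 0.40 on day 14, with an SD of 0.44 on chow.

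The class mean of the exporters lay between -0.24 and 0.52 on chow, -0.43 and 0.08 on day 2, -0.42 and 0.11 on day 4, -0.21 and 0.24 on day 6, and -0.36 and 0.36 on day 14. Cell cycle genes are given beside these values because they also varied within groups. Day 6 replicates 3 and 4 had synthesis means of 0.94 and 0.86 with cell cycle means of 1.76 and 3.53, and day 4 replicate 1 had 0.89 with 1.11. The summed level of 6 cell cycle genes lay between 11.6 and 34.5 CPM on chow, 22.9 and 50.2 CPM on day 2, 48.3 and 485 CPM on day 4, 34.2 and 277 CPM on day 6, and 26 and 60.6 CPM on day 14. Adipocyte markers (8 genes) summed to 22465 to 41424 CPM on chow, 26768 to 43058 CPM on day 2 and 19947 to 31409 CPM on day 4. They did not move as 1: on day 4, 1 was called higher and 2 lower (18% and 17.3% of all genes). Lep measured 374 to 903 CPM on chow and 2032 to 3075 CPM on day 4, and Cfd 6624 to 16582 and 956 to 5764 CPM. The sums of 5 endothelial markers were 693 to 949, 841 to 877 and 872 to 1706 CPM on chow, day 2 and day 4. Those of 5 progenitor markers were 441 to 482, 292 to 395 and 316 to 500 CPM. The 6 mesothelial markers summed to 305 to 404 CPM on chow, 92.9 to 149 CPM on day 2 and 64.1 to 191 CPM on day 4. On day 2, 5 of these 6 were called lower (1.96% of all genes), and on day 4, 6 of 6 were (17.3% of all genes). On day 4, 4 of 5 endothelial markers and 6 of 6 cell cycle genes were called higher (18% of all genes), and 2 of 5 progenitor markers lower. On days 6 and 14 the mesothelial sums were 146 to 255 and 140 to 304 CPM. The part of cell composition in the day 2 and day 4 values was not tested.

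**Figure D4:**
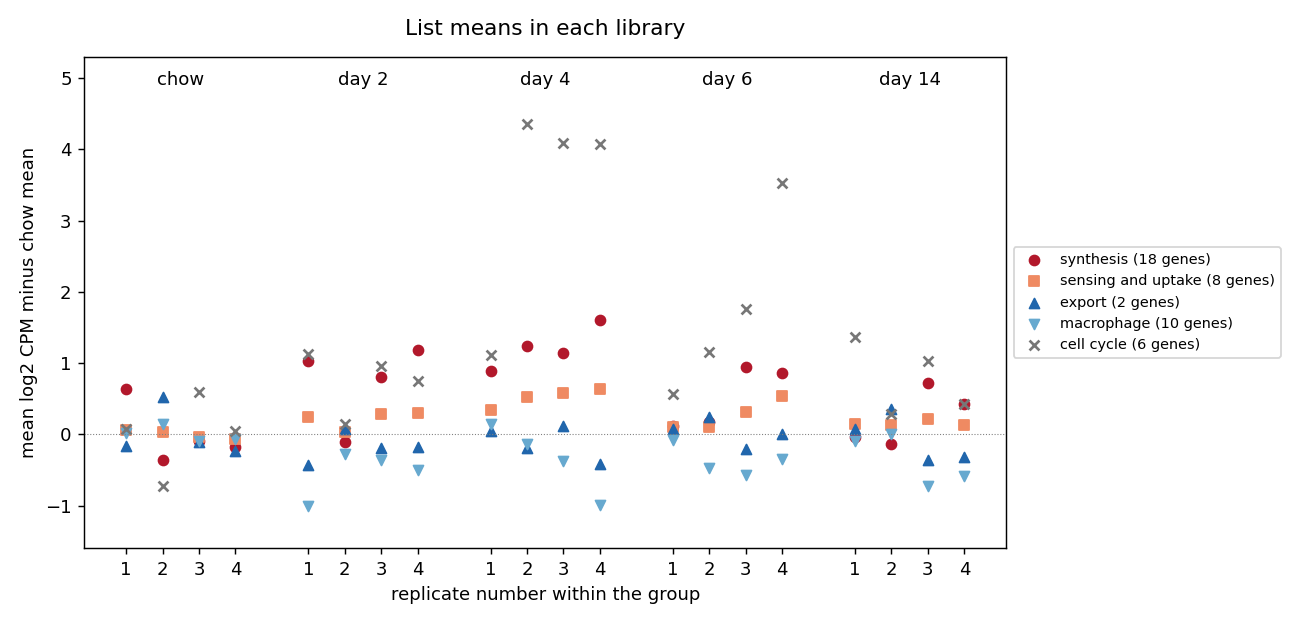
Mean log2 CPM minus the chow mean (vertical axis) of 3 role classes, 10 macrophage markers and 6 cell cycle genes in each library (horizontal axis, by group and replicate). Day 2 replicate 2 has a synthesis mean of -0.11, below the 0.81 to 1.19 of its group, and day 4 replicate 1 has a cell cycle mean of 1.11, below the 4.08 to 4.35 of its group.

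Between high-fat days, the members were compared directly. From day 2 to day 4 Tmem97 alone was called, higher by 0.85 ± 0.17 (SE, edgeR adjusted p = 0.0412), where 2.14% of all genes were called higher and 0.256% lower, and this call was absent in 6 of the 8 fits without 1 library. From day 4 to day 6 edgeR called 0 members and 0 of all genes (0% in both directions), and DESeq2 and limma-voom called 0 members. At an unadjusted p under 0.05, 14 members were lower and 1 higher, where 1170 and 1322 of all 15254 genes were. All 18 synthesis genes had a negative change between these days, with a median of -0.70 against 0.00 for all genes. From day 6 to day 14 edgeR, DESeq2 and limma-voom called 0 members (0% of all genes in edgeR). With an unadjusted p under 0.05, 1 member was lower and 0 higher, where 242 and 266 of all genes were.

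From day 4 to day 14, 9 members were called lower and 0 higher, where 4.78% of all genes were called lower and 4.58% higher. They were Fdps at -1.53 ± 0.40, Cyp51 at -1.50 ± 0.40, Nsdhl at -1.44 ± 0.36, Mvd at -1.37 ± 0.41, Dhcr7 at -1.37 ± 0.36, Tm7sf2 at -1.24 ± 0.33 and Lss at -1.20 ± 0.37 among synthesis genes, with Insig1 at -1.83 ± 0.48 and Tmem97 at -0.60 ± 0.16 (log2, SE). Their edgeR adjusted p ran from 0.0292 (Nsdhl) to 0.0491 (Lss). The synthesis median was -1.05, and in 14 members all day 14 libraries lay below all day 4 libraries (6.36% of all genes). The count was 0 without any one of day 4 replicates 2, 3 and 4 or day 14 replicates 1, 2 and 4, 15 without day 4 replicate 1 and 14 without day 14 replicate 3.

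In the test of any difference among the 5 groups 13 of 28 members were called, against 19.6% of all genes. They were Tmem97 (edgeR adjusted p = 0.00692), Insig1 (edgeR adjusted p = 0.00839) and 11 synthesis genes, led by Msmo1 (edgeR adjusted p = 0.0172). Stard4 missed the threshold (edgeR adjusted p = 0.056), and the largest p were those of Abcg1 (0.892), Scap (0.875) and Fdft1 (0.826). The count was 2 without chow replicate 4 and day 2 replicate 1, and, without 1 library, it was 5 to 7 without chow replicate 2, 3 or 4 and 2 to 4 without day 4 replicate 2, 3 or 4.

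Per length of exon, Insig1 (140 CPM per kilobase, mean of 20 libraries) and Hmgcs1 (111) stood above the other members. Pmvk (48.4), Sc5d (45.8), Abca1 (39.2), Acat2 (32.1) and Nsdhl (31.1) followed, and the lowest were Tm7sf2 (2.95), Stard4 (3.69) and Hsd17b7 (3.73). The exon lengths came from GENCODE M21 and may differ from those behind the counts. The ratio of the highest to the lowest library, on the CPM scale, was 16.6 for Insig1, 7.90 for Mvd and 7.34 for Hsd17b7, and under 2 for Fdft1, Ebp, Insig2, Srebf2, Scap, Npc1 and Abca1.

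Further genes of the pathway were read from 7 short lists, whose counts stand beside the share of all genes called higher and lower against chow: 2.43% and 1.96% on day 2, 18% and 17.3% on day 4, 1.99% and 1.46% on day 6, and 0.878% and 0.302% on day 14. Of 15 genes of isoprenoid branches and acetyl-CoA supply 3 were called higher on day 4, a share near the 18% of all genes, and 0 lower: Nus1 (0.55 ± 0.14) and Dhdds (0.30 ± 0.09), the subunits that build dolichol precursors, and the methyltransferase gene Icmt (0.24 ± 0.08, log2, SE). On day 14 Acly, the source of cytosolic acetyl-CoA, fell by 1.90 ± 0.46 (SE, edgeR adjusted p = 0.0497). It measured 1901 ± 1299 CPM on chow and 510 ± 199 CPM on day 14 (SD, n = 4).

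Of 10 genes of SREBP processing and sterol-regulated degradation, Srebf1, which encodes the lipogenic SREBP-1, rose by 0.85 ± 0.18 (SE, edgeR adjusted p = 0.015) on day 2 and 0.48 ± 0.17 (SE, edgeR adjusted p = 0.0384) on day 4, and Pgrmc1 fell by 0.55 ± 0.12 (SE, edgeR adjusted p = 0.00249) on day 4. The protease genes Mbtps1 and Mbtps2, which cut the SREBP precursors, were not called on any day. Among 7 uptake receptor genes 3 were called higher and 1 lower on day 4 (18% and 17.3% of all genes). Vldlr rose by 1.05 ± 0.15 (SE, edgeR adjusted p = 0.000655) and Scarb1, the HDL receptor gene, by 0.60 ± 0.17 (SE, edgeR adjusted p = 0.0124). Scarb1 also rose on day 2 (0.75 ± 0.17) and Vldlr on day 6 (0.65 ± 0.14, log2, SE). Lrp8, at 1.53 ± 0.774 CPM on chow, rose by 1.33 ± 0.50 and Sort1 fell by 0.44 ± 0.14 (log2, SE).

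Of 9 genes of endolysosomal and intracellular sterol transport 1 was called against chow, Gramd1a, higher by 0.45 ± 0.12 (SE, edgeR adjusted p = 0.00772) on day 4 (18% of all genes were called higher). Lipa, the lysosomal ester hydrolase gene, was lower on day 14 than on day 4 (-0.33 ± 0.08, log2, SE, edgeR adjusted p = 0.0292). Of 11 genes of the LXR and export list 9 were measured well enough to test. On day 4 Lpcat3, which remodels phospholipids, rose by 0.75 ± 0.15 (SE, edgeR adjusted p = 0.00185) and Nr1h3 (LXR alpha) by 0.40 ± 0.13 (SE, edgeR adjusted p = 0.0258), while Nr1h2 (LXR beta) fell by 0.29 ± 0.09, Smpdl3a by 0.45 ± 0.13 and Abca5 by 0.50 ± 0.16 (log2, SE). Abcg4, a relative of Abcg1, rose on day 6 (1.01 ± 0.27) and day 14 (1.32 ± 0.28, log2, SE). It measured 4.59 ± 0.575 CPM on chow and 11.4 ± 0.944 CPM on day 14 (SD, n = 4). On day 2 Lpcat3 (0.62 ± 0.15) and Rxra (0.45 ± 0.11) rose and Smpdl3a (-0.54 ± 0.13) fell, and Abca5 fell by 0.59 ± 0.15 on day 6.

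Of 5 genes of oxysterol synthesis, Cyp27a1, the mitochondrial sterol hydroxylase gene, fell by 1.20 ± 0.27 (SE, edgeR adjusted p = 0.00366) on day 4, from 56.4 ± 6.96 to 24.4 ± 6.38 CPM (SD, n = 4). Hsd3b7 fell by 0.68 ± 0.17 and Ch25h, at 0.44 ± 0.412 CPM on chow, rose by 1.82 ± 0.59 (log2, SE). Of 4 genes of esterification and ester hydrolysis 3 were tested and none was called. The largest changes were on day 2, in Nceh1, an ester hydrolase gene (-0.76 ± 0.23), and Soat1, a cholesterol acyltransferase gene (-0.76 ± 0.26, log2, SE), with edgeR adjusted p of 0.0628 and 0.0881.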

How the data were processed

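RNA-seq of epididymal fat gave a table of whole-number counts per Ensembl gene ID, deposited by the authors without normalization. CASAVA, featureCounts, STAR, R 3.0 and limma appear in the submitters' processing notes, without their roles. The genome build, annotation and strand setting are not given in the sources used here, so overlapping or antisense genes cannot be told apart. Symbols were matched to 37607 of 39179 IDs.

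All 20 libraries were fitted in 1 model by group with edgeR 4.0.16 (R 4.3.3): filterByExpr (minimum count 10, total 15), TMM, robust quasi-likelihood test, 15254 genes tested, 15 residual degrees of freedom, common biological coefficient of variation 0.209, Benjamini-Hochberg adjustment over all genes. At least 99.5% of counts in each library fell on tested genes. A standard error is the fitted log2 change divided by the root of F. Total counts per library limit precision, most in day 2 replicate 1.

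Per-library values are given for the 8 synthesis genes with the lowest p in the test of any difference among groups and for all members of the other classes. The members, lists and alternatives were chosen with earlier results of these data known. Alternatives were RLE size factors, library totals only, no filter, a stricter filter, DESeq2 1.42.0, limma-voom (limma 3.58.1), the replicate number as a term, only the groups compared, an adjusted p under 0.01, and leaving out single libraries. Leaving out chow replicate 4 with day 2 replicate 1 was added after seeing the data.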

Additional observations from a re-analysis of the deposited data

Results flagged for a closer look

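In 9 of 140 groups of 4 libraries, 1 library stood far from the others, by a gap above Dixon's 95% critical share of the group's range. Chance flags about 1 in 20 groups, or 7 of 140, and the synthesis genes moved together, so these are not 9 separate events. Chow replicate 1 was flagged by this rule as far above its group for 5 synthesis genes, and was the highest of its group for 15 of 18. Mvk measured 38.5 CPM there against 23 to 24.8 CPM, Idi1 20.2 against 10.1 to 11.2 CPM, and Fdps 72.2 against 28.7 to 34.4 CPM. Lss measured 73.2 against 33.4 to 38.2 CPM, and Sc5d 204 against 92.5 to 111 CPM. In day 14 replicate 3, Mvd measured 19 CPM against 10 to 10.3 CPM, and Ebp 47.2 against 38 to 38.9 CPM. Srebf2 was low in day 4 replicate 1, at 66.8 CPM against 77.5 to 78.4 CPM. Abcg1 was high in chow replicate 2, at 49.1 CPM against 24.5 to 27.8 CPM.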

How the results depend on the processing

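Of 1904 log2 changes of the 28 members against chow under the alternatives, 1757 kept their direction and side of the threshold, 48 lost a call, 25 gained one, 74 changed sign while not called and 0 reversed a call. For day 2 against chow, the count of 4 became 2 with library totals only, 2 with limma-voom, and 0 with no filter, with only the groups compared, without chow replicate 4 and day 2 replicate 1, and at an adjusted p under 0.01. The day 4 count of 20 became 12 at an adjusted p under 0.01. The day 6 count of 0 became 4 with DESeq2 and 1 with limma-voom, which called 1180 and 706 of all 15254 genes. For day 4 against day 2, the count of 1 became 2 with the replicate block and 0 with library totals only, no filter, limma-voom, only the groups compared, without the 2 libraries named above, and at an adjusted p under 0.01. For day 14 against day 4, the count of 9 became 15 with DESeq2, 14 with the replicate block, 4 with limma-voom, and 0 with no filter and at an adjusted p under 0.01. The count of 13 for any difference became 20 with DESeq2, 6 with no filter, and 2 without the 2 libraries and at an adjusted p under 0.01. The causes were not tested.

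Leaving out 1 library at a time gave counts of 0 to 8 (day 2 against chow), 14 to 22 (day 4), 0 to 5 (day 6), 0 to 0 (day 14), 0 to 3 (day 4 against day 2), 0 to 1 (day 6 against day 4), 0 to 15 (day 14 against day 4), 0 to 0 (day 14 against day 6) and 2 to 18 (any difference). The day 6 against day 4 count was 1 without day 4 replicate 1 or day 6 replicate 4. The exporter median lay between -0.27 and 0.04 (day 2), -0.23 and 0.06 (day 4), -0.07 and 0.22 (day 6), and -0.20 and 0.16 (day 14), so its sign rested on single libraries, and the synthesis median ran from -0.01 to 0.46 on day 14. With library totals only, the median of all genes moved to between -0.14 and -0.10, and the sensing and uptake median became -0.02 on day 2, with its sign turned, and 0.05 on day 14.

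Nothing in the labels says that equal replicate numbers share a source, and the numbers were not taken to pair the libraries. Running numbers in the column names of the count table do rise with the replicate number within each group. Libraries of equal replicate number therefore mostly stand next to each other in that order, whose meaning is not given. Deviations from the group means correlated at -0.19 to 0.52 over 40 pairs of same-numbered libraries, 12 of them over 0.1, and at -0.69 to 0.38 over 120 other pairs, 30 of them over 0.1. The median correlation was 0.04 for same-numbered pairs and -0.01 for the other pairs. As a hint from the data, 10 of 20 libraries correlated best with a library of their own number. The count that chance would give was not worked out. With the replicate block Srebf2 was called higher on day 4 (0.31, edgeR adjusted p = 0.0428). Depth differed 20.3-fold, which limits members of low level, such as Tm7sf2 and Tmem97, most in the smallest library.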
